A study of Mus musculus with 12 samples.

Results

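The endothelium of the brain and its vascular endothelial growth factor (VEGF) signals were followed through 10 genes: Vegfa, Kdr, Flt1, Tek, Angpt1, Cldn5, Pecam1, Cdh5, Slc2a1 and Slco1a4. They were chosen by name, matched by Ensembl gene ID among the 56941 genes of each deposited count table, and read from the strand that the stranded library kit assigns to the gene. All 10 were found and all 10 passed the filter on low counts, among 20341 genes tested. The study asked how long-term voluntary running acts on the cerebellum of mice with spinocerebellar ataxia type 1 (SCA1). It used the Atxn1154Q/2Q knock-in mouse, which carries an expanded CAG repeat in 1 copy of its own Atxn1 gene, and WT littermates on a C57BL/6J background.

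Bulk RNA of the cerebellum was sequenced from 12 mice, 3 in each of 4 groups. WT sedentary mice (116, 117 and 192) and SCA1 sedentary mice (16, 194 and 195) had no wheel and were housed in groups. WT exercise mice (121, 197 and 201) and SCA1 exercise mice (55, 122 and 198) had a running wheel for 12 weeks, from 4 to 16 weeks of age, and lived alone, so that running and housing cannot be told apart. The paper's methods state that wheels were taken away some days ahead of the behavioural tests, and that tissue was collected once testing ended. The RNA was thus not sampled during wheel access. Animals of both sexes were used and were perfused with saline. Y-linked transcripts were present in 3 of 3 libraries of WT sedentary mice, 2 of 3 in WT runners, 2 of 3 in SCA1 sedentary mice and 1 of 3 in SCA1 runners. Each label names a separate mouse, so mice are the replicates. The p-values of group comparisons by edgeR rest on the spread between mice within groups, estimated jointly over the 4 groups. Those of the correlations come from permuting the 12 mice across groups.

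VEGF-A is secreted by astrocytes and neurons and acts on endothelial cells through the receptor VEGFR2, encoded by Kdr. VEGFR1, encoded by Flt1, binds the same ligand with high affinity and signals weakly, and so limits how much of it reaches VEGFR2. Angiopoietin-1, encoded by Angpt1, activates the receptor TIE2, encoded by Tek, which keeps vessels quiescent and tight. The blood-brain barrier is built on this endothelium from tight junctions, adherens junctions and transporters. In bulk RNA, fewer cells of a type and less RNA per cell cannot be told apart.

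Each gene was placed on GRCm39 with GENCODE M39, in which each is protein coding. The ligand Vegfa (ENSMUSG00000023951) lies at chr17:46327919-46343309 on the minus strand, and Angpt1 (ENSMUSG00000022309) at chr15:42288058-42540417 on the minus strand. The receptors Kdr (ENSMUSG00000062960, chr5:76093487-76139884) and Flt1 (ENSMUSG00000029648, chr5:147498414-147662826) share chromosome 5 and the minus strand. Tek (ENSMUSG00000006386) lies at chr4:94627291-94763224 on the plus strand. Of the junction genes, Cldn5 (ENSMUSG00000041378) has a span of 1416 bases at chr16:18595597-18597012, Cdh5 (ENSMUSG00000031871) lies at chr8:104828231-104871143, both on the plus strand, and Pecam1 (ENSMUSG00000020717) at chr11:106543689-106641454 on the minus strand. Of the transporter genes, Slc2a1 (ENSMUSG00000028645) lies at chr4:118965908-118996365 on the plus strand and Slco1a4 (ENSMUSG00000030237) at chr6:141751165-141802036 on the minus strand. A gene on the opposite strand overlaps an exon of Vegfa (Gm65021), Angpt1 (Gm17473), Cdh5 (Gm64067) and Slc2a1 (Gm12868), and no gene on the same strand overlaps an exon of any of the 10. The forward-strand column held the largest share of both strands' counts at Tek, 7.01% to 21.0% by library, and at most 4.12% at the other 9 genes.

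The promoters of the 3 receptor genes are shown because 1 mouse, SCA1 sedentary mouse 194, had the highest level of all 12 mice in each of them, as described further on. Each window runs from 250 bases before to 50 bases after a RefSeq transcription start, 5′ to 3′ along the gene, in the build GRCm38.p6, which is older than that of the counts. Capitals mark GGAA, the core of the sites of ETS transcription factors, or its reverse complement.
Kdr, chr5:75978406-75978705, minus strand: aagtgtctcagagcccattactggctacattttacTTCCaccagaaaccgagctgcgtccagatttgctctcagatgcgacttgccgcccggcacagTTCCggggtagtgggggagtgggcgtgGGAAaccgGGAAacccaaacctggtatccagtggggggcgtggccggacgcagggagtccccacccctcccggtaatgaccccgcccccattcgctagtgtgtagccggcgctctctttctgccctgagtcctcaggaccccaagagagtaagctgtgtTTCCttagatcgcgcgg
Flt1, chr5:147725962-147726261, minus strand: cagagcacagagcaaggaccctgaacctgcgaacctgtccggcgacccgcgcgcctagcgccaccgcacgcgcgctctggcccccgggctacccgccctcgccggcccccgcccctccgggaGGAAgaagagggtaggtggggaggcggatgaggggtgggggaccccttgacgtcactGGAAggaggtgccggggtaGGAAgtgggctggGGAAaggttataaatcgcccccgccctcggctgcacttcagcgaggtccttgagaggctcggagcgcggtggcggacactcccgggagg
Tek, chr4:94739039-94739338, plus strand: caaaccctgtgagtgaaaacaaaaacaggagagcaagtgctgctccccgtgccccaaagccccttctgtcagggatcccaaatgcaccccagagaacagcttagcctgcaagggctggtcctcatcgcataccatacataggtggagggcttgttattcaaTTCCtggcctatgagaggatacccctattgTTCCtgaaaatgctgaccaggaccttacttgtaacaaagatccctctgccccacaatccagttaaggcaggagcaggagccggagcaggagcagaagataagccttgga
The core occurred 5 times in the Kdr window, 4 times in the Flt1 window and 2 times in the Tek window on either strand. It is a short motif: 96.0% of 32851 RefSeq windows of 300 bases held it at least once, with a median of 3. Of the other motifs searched on both strands, GGGCGG, the GC box, was found in 35.7% of all windows, and occurred 3 times in Flt1, 2 times in Kdr and 0 times in Tek. The hypoxia response cores ACGTG and GCGTG were in 19.6% and 32.4% of all windows, and of these GCGTG occurred 2 times in Kdr, 1 time in Flt1 and 0 times in Tek, and ACGTG in none of the 3. TATAAA, the TATA box, was in 13.6% of all windows and occurred 1 time in Flt1 and 0 times in Kdr and Tek. Windows were matched for 7 of the 10 genes, all but Angpt1, Pecam1 and Cdh5. Mouse 194 was also the highest in Vegfa, Pecam1 and Cdh5, and the 2 windows of Vegfa are not printed. ACGTG occurred 0 times in the upstream Vegfa window, chr17:46032328-46032627. It occurred 1 time in the other, chr17:46025114-46025413, which starts further along the gene, and 1 time in the Slc2a1 window. GCGTG had the same counts there. A link between the motifs and the levels was not tested.

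Levels are given as CPM, counts per 1000000 counts on genes after TMM scaling of the library totals, and between genes per kb of exon. The 12 libraries held 20556802 to 32127508 counts on genes, and the 10 genes were counted between 172 and 2559 times in a library. The libraries of SCA1 sedentary mouse 16 and SCA1 exercise mouse 55 stood apart in the share of read pairs mapped to several places, 6.38% and 6.33% against 2.08% to 3.46% in the others, and in the share assigned to no gene, 39.3% and 44.1% against 46.0% to 58.7%. They also held more RNA of the oligodendrocyte genes Mbp, Mog, Mobp and Mag. Summed over these 4 it was 4645 and 3622 CPM, against 1586 to 2706 CPM in the other 10 mice. Results of the 10 genes that rest on mice 16 and 55 are therefore also given without them.

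On the per-kb scale the order over all 12 mice was led by the genes of glucose transport and of the ligand: Slc2a1, the glucose transporter GLUT1, at 19.5 ± 1.84 CPM per kb (SD, n = 12) and Vegfa at 16.7 ± 1.51. Cldn5, the main claudin of brain endothelial tight junctions, followed at 7.68 ± 1.18, Slco1a4, an organic anion transporter of the barrier, at 5.38 ± 0.764 and Flt1 at 4.87 ± 0.704. Cdh5, the adherens junction protein VE-cadherin, stood at 3.13 ± 0.400, Angpt1 at 2.32 ± 0.644, Tek at 1.95 ± 0.280, Pecam1, the adhesion molecule CD31, at 1.57 ± 0.168 and Kdr at 1.14 ± 0.229. Vegfa and Cldn5 were the only neighbours in this order whose ranges over the 12 mice did not overlap. Slc2a1 and Vegfa are also transcribed outside endothelium, in glia and neurons, so their levels are not those of endothelium alone.

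Angpt1 varied most among the 10, with a coefficient of variation of 27.7% and a 2.28-fold distance between its lowest and highest mouse. Kdr followed at 20.1%, and Vegfa, at 9.01%, and Slc2a1, at 9.47%, varied least. The endothelial label was checked with 24 other endothelial identity genes, among them Erg, Egfl7, Esam and Emcn. All 24 passed the filter, and their summed level was 370 to 375 CPM in WT sedentary, 371 to 400 in WT exercise, 300.3 to 401 in SCA1 sedentary and 350.1 to 378 in SCA1 exercise mice.

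**Figure D1:**
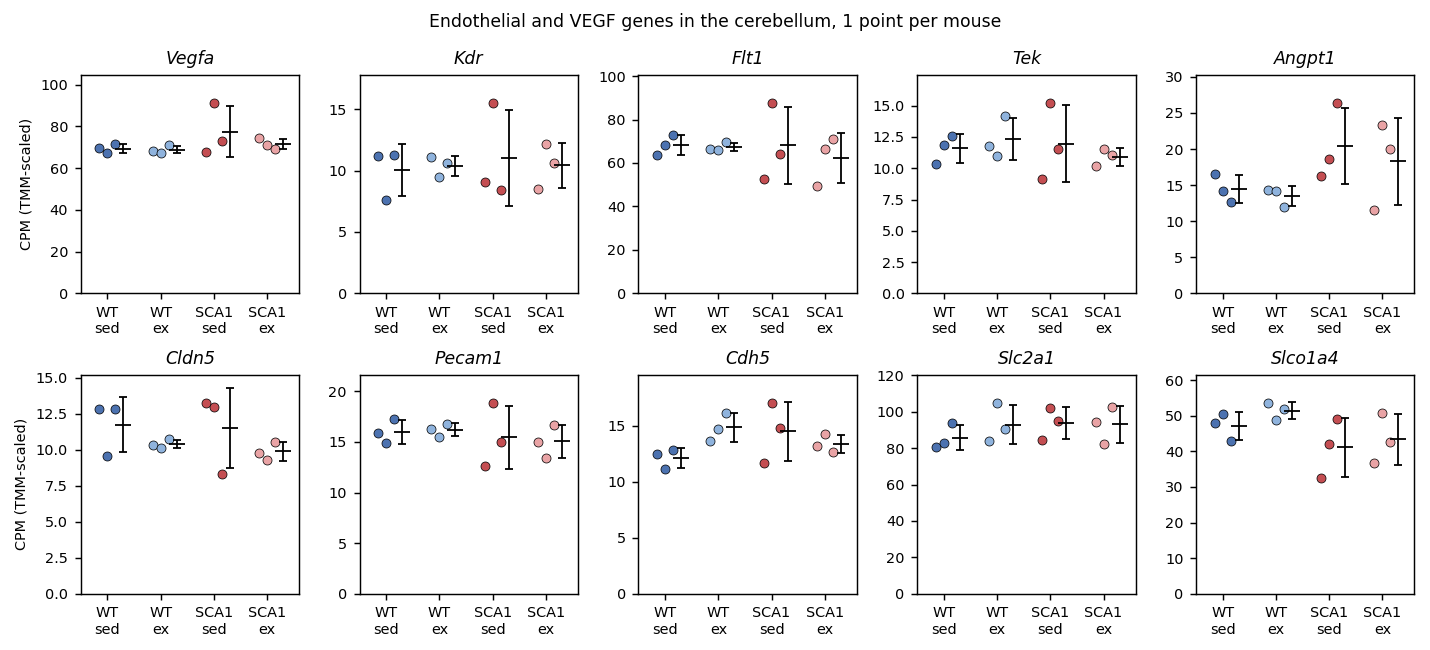
CPM of each gene (vertical axis, from 0) in the 4 groups, 1 point per mouse in order of mouse number, with the mean ± SD of 3 mice as a bar at the right of each group. The SCA1 sedentary group spread most in Vegfa, Kdr, Flt1 and Tek, where mouse 194 was the highest of all 12, and Angpt1 was the gene in which 4 of 6 SCA1 mice lay above all 6 WT mice.

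The first comparison asked whether these genes differed in the cerebellum of sedentary SCA1 mice from that of sedentary WT mice. The test was edgeR's quasi-likelihood test with Benjamini-Hochberg adjustment over all genes, and a gene was called where the adjusted p was under 0.05 and the log2FC past 0.5 in either direction. Of the 10 genes 0 were called, 0 had an unadjusted p under 0.05, and DESeq2 called 0. Of all genes 7 (0.0344%) were called by edgeR, 206 by DESeq2 and 205 by edgeR without mice 16 and 55, and 2055 (10.1%) had an unadjusted p under 0.05 by edgeR. The log2FC of the 10 genes ran from −0.20 (Slco1a4) to 0.50 (Angpt1), with 6 above 0, a median of 0.09 and adjusted p of 0.521 or more by edgeR. No gene had groups that did not overlap, against 11.4% of all genes. Without mice 16 and 55, 8 of the 10 log2FC were above 0, with a median of 0.22 and a lowest adjusted p of 0.0655 by edgeR. Without mouse 194 the balance went the other way, with 4 above 0, 6 below 0 and a median of −0.16.

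Among the ligands, Angpt1 was at 16.5, 14.2 and 12.6 CPM in WT sedentary mice 116, 117 and 192, and at 16.3, 18.6 and 26.4 CPM in SCA1 sedentary mice 16, 194 and 195. The groups met at mouse 16, which lay just under the highest WT mouse, and the other SCA1 mice lay above it. The log2FC was 0.50 (SE 0.24, 95% interval −0.03 to 1.03, adjusted p = 0.521 by edgeR), and 0.66 without mice 16 and 55. Vegfa was at 69.5, 67.4 and 71.4 CPM in WT sedentary and 68.0, 91.2 and 73.0 CPM in SCA1 sedentary mice. Mouse 194 stood alone above the rest, and the log2FC of 0.16 (SE 0.10) was 0.01 without that mouse.

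Among the receptors, Flt1 was at 63.6, 68.5 and 72.9 CPM in WT sedentary mice and at 52.5, 87.6 and 64.2 CPM in SCA1 sedentary mice. The SCA1 mice lay on both sides of the WT range, with mouse 16 under it and mouse 194 over it, and the log2FC was −0.0048 (95% interval −0.38 to 0.37), and 0.17 without mice 16 and 55. Kdr was at 11.2, 7.61 and 11.3 CPM in WT sedentary and at 9.11, 15.5 and 8.42 CPM in SCA1 sedentary mice. Tek was at 10.4, 11.8 and 12.6 CPM in WT sedentary and at 9.15, 15.2 and 11.5 CPM in SCA1 sedentary mice. In both, mouse 194 was above every other mouse, and mouse 16 had the lowest Tek of all 12. The log2FC were 0.13 (SE 0.24) for Kdr and 0.04 (SE 0.18) for Tek, without mouse 194 they were −0.21 and −0.18, and without mice 16 and 55 they were 0.27 and 0.23.

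Among the junction genes, Cdh5 was at 12.5, 11.1 and 12.8 CPM in WT sedentary and at 11.7, 17.0 and 14.8 CPM in SCA1 sedentary mice, a log2FC of 0.25 (SE 0.15, adjusted p = 0.598 by edgeR). Pecam1 was at 15.9, 14.9 and 17.2 CPM against 12.6, 18.8 and 14.96 CPM, with the SCA1 mice again below, above and within the WT range. The log2FC of Pecam1 was −0.05 (SE 0.15), and 0.10 without mice 16 and 55. Cldn5 was at 12.8, 9.57 and 12.8 CPM in WT sedentary and at 13.2, 13.0 and 8.28 CPM in SCA1 sedentary mice, a log2FC of −0.03 (SE 0.19), and −0.12 without mice 16 and 55. Mouse 16 had the highest and mouse 195 the lowest Cldn5 of all 12.

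Of the transporters, Slc2a1 was at 80.8, 82.8 and 93.9 CPM in WT sedentary and at 84.4, 102 and 94.9 CPM in SCA1 sedentary mice. The groups overlapped, with means of 85.8 ± 7.06 and 93.8 ± 8.98 CPM (SD, n = 3) and a log2FC of 0.13 (SE 0.12). Slco1a4 was at 48.0, 50.6 and 42.8 CPM in WT sedentary and at 32.5, 42.0 and 49.0 CPM in SCA1 sedentary mice, with mouse 16 the lowest of all 12. Its log2FC was −0.20 (SE 0.15, adjusted p = 0.698 by edgeR), and −0.03 without mice 16 and 55.

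The comparison of SCA1 exercise with WT exercise mice put the same question in runners, with 0 of the 10 genes called by edgeR or DESeq2, 0 with an unadjusted p under 0.05, and 0% of all genes called by edgeR (596 at an unadjusted p under 0.05, and 2 called by DESeq2). No gene separated the groups, against 14.2% of all genes. Angpt1 was at 14.4, 14.2 and 11.96 CPM in WT exercise and at 11.6, 23.3 and 20.02 CPM in SCA1 exercise mice, a log2FC of 0.44 (SE 0.24, adjusted p = 0.960 by edgeR), and 0.69 without mice 16 and 55. Mouse 55 had the lowest Angpt1 of all 12, whereas mice 122 and 198 lay above every WT mouse. Slco1a4 was at 53.5, 48.9 and 52.0 CPM in WT exercise and at 36.7, 50.9 and 42.6 CPM in SCA1 exercise mice, a log2FC of −0.25 (SE 0.15), and −0.13 without mice 16 and 55. Flt1 was at 49.6 CPM in mouse 55, its lowest value, and at 66.3 and 71.1 CPM in the other SCA1 exercise mice, against 66.2, 66.1 and 69.5 CPM in WT exercise mice. Its log2FC was −0.11 (SE 0.17), and 0.04 without mice 16 and 55.

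Taking the sedentary and exercise pairs of groups together gives a comparison of 6 SCA1 with 6 WT mice. Again 0 of the 10 genes were called by edgeR or DESeq2, against 24 of all genes (0.118%). The genes split evenly, 5 higher and 5 lower (8 and 2 without mice 16 and 55, and 3 and 7 without mouse 194), with a median log2FC close to 0, and the median absolute log2FC was 0.07 against 0.13 over all genes. Angpt1 alone had an unadjusted p under 0.05, as did 9.81% of all genes. Its level was 11.6 to 26.4 CPM in SCA1 and 11.96 to 16.5 CPM in WT mice, and 4 of 6 SCA1 mice were above all WT mice. The log2FC was 0.47 (SE 0.17, 95% interval 0.10 to 0.84), with a p of 0.0179, an adjusted p of 0.410 by edgeR, and p = 0.06 by a two-sided exact permutation test within activity groups, which can go no lower than 0.005.

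This result turned on mice 16 and 55. Without them, which leaves 2 SCA1 mice in each activity group, Angpt1 was called with a log2FC of 0.67 and an adjusted p of 0.00923 by edgeR. In that fit 142 of all 20494 genes tested were called, against 24 over all mice. Angpt1 was the only call among the 10 genes in any alternative. Leaving out 1 mouse at a time gave Angpt1 a log2FC between 0.35 and 0.60 and an adjusted p between 0.148 and 0.6998. Slco1a4 went from a log2FC of −0.22 (SE 0.11, 95% interval −0.46 to 0.01, adjusted p = 0.528 by edgeR) over all mice to −0.08 without mice 16 and 55. The part of the oligodendrocyte RNA or of the mapping shares in either value was not tested.

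**Figure D2:**
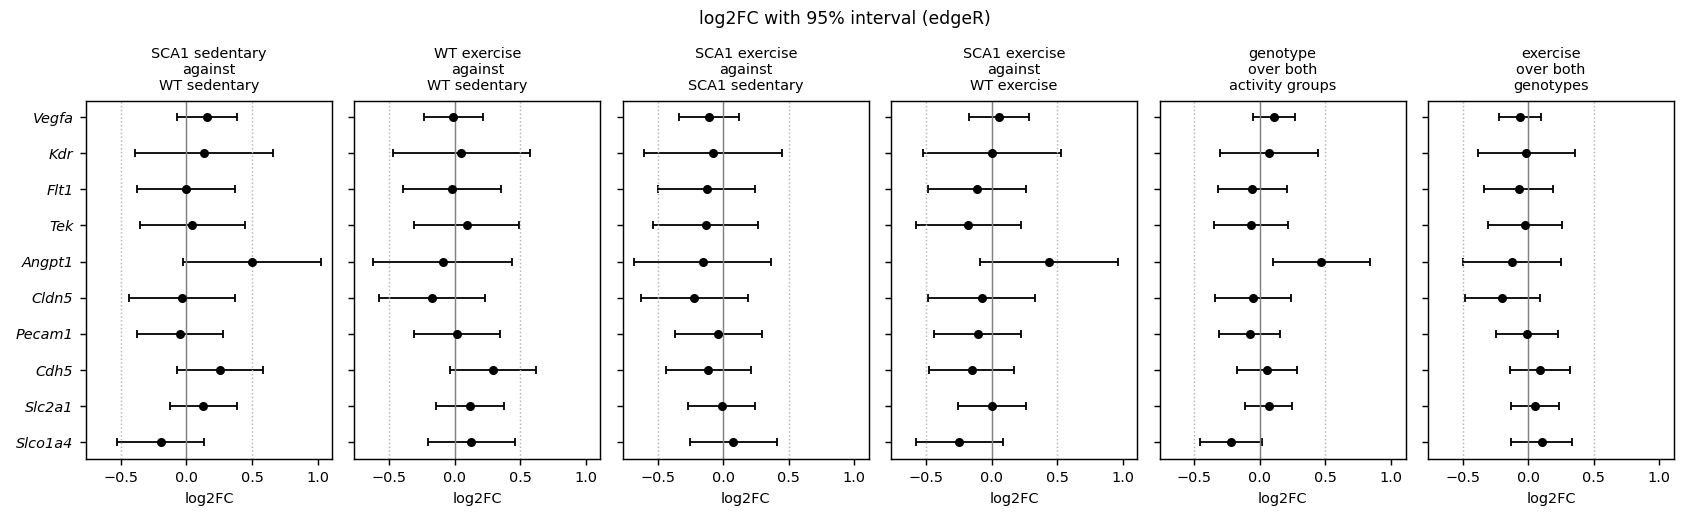
log2FC of each gene (horizontal axis, points) with its 95% interval (bars) in 6 comparisons, where dotted lines mark a log2FC of 0.5 in either direction. The interval of Angpt1 between the genotypes, 0.10 to 0.84, was the only one that left out 0.

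Running was first compared with sedentary housing in WT mice. By edgeR 0 of the 10 genes were called and 0 had an unadjusted p under 0.05, DESeq2 called 0, and 0% of all genes were called by edgeR (955 at an unadjusted p under 0.05, and 65 called by DESeq2). Cdh5 was the 1 gene whose groups did not overlap, where 21.2% of all genes did not. It was at 12.5, 11.1 and 12.8 CPM in WT sedentary mice and at 13.6, 14.7 and 16.2 CPM in WT exercise mice, so that each runner lay above each sedentary mouse. The log2FC was 0.29 (SE 0.15, 95% interval −0.03 to 0.62, adjusted p = 0.958 by edgeR, p = 0.1 by exact permutation, the lowest that 3 against 3 mice allow). Vegfa was at 68.4, 67.4 and 71.0 CPM in WT exercise mice, nearly the same range as in WT sedentary mice, and its log2FC of −0.01 had an interval from −0.24 to 0.22. Cldn5 was at 12.8, 9.57 and 12.8 CPM in WT sedentary and at 10.3, 10.1 and 10.7 CPM in WT exercise mice, a log2FC of −0.18 (SE 0.19). The runners lay within the sedentary range. Slco1a4, at 53.5, 48.9 and 52.0 CPM in WT exercise mice, had a log2FC of 0.13 (SE 0.15), and Slc2a1, at 83.7, 105 and 90.4 CPM, one of 0.11 (SE 0.12), each overlapping the sedentary mice.

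In SCA1 mice, the log2FC of runners against sedentary mice was below 0 in 9 of the 10 genes, with a median log2FC of −0.11 (−0.01 over all genes). None of the 10 was called by edgeR or DESeq2 and 0 had an unadjusted p under 0.05, with 0% of all genes called by edgeR (441 at an unadjusted p under 0.05, and 1 called by DESeq2). No gene separated the groups, against 4.5% of all genes. Vegfa was at 74.3, 71.4 and 69.4 CPM in SCA1 exercise mice, within the SCA1 sedentary range of 68.0 to 91.2 CPM. Kdr was at 8.53, 12.1 and 10.6 CPM and Tek at 10.2, 11.5 and 11.02 CPM in SCA1 exercise mice, each also within the range of the sedentary SCA1 mice. Cdh5 was at 13.2, 14.2 and 12.7 CPM in SCA1 exercise mice, also within the sedentary range, with a log2FC of −0.12 (SE 0.15). Cldn5 was at 9.76, 9.30 and 10.5 CPM in SCA1 exercise mice, between the extremes of the sedentary mice, and its log2FC of −0.22 (SE 0.19) was the lowest of the 10. Without mouse 194 the log2FC of Vegfa, Flt1, Tek and Kdr in this comparison were 0.03, 0.11, 0.09 and 0.26. The balance of the 10 genes turned with that sedentary mouse, to 8 above 0 and 2 below 0 with a median of 0.08. The comparisons of runners with sedentary mice and of the genotypes share groups, so their values are not independent.

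Over both genotypes, exercise gave 0 calls among the 10 genes with edgeR or DESeq2, 0 with an unadjusted p under 0.05, and 0% of all genes by edgeR (721 at an unadjusted p under 0.05, and 11 called by DESeq2). The log2FC ran from −0.20 for Cldn5 (SE 0.13) to 0.10 for Slco1a4 (SE 0.11). The response to exercise was then compared between the genotypes by the interaction term. It called 0 of the 10 genes with edgeR or DESeq2 and 0% of all genes with edgeR, with 0 of the 10 and 769 of all genes at an unadjusted p under 0.05 (2 of all genes called by DESeq2). All 10 interaction values were below 0, with a median of −0.10 (−0.01 over all genes). Without mouse 194 they split evenly, 5 above and 5 below 0, with a median of 0.02. Cdh5 had the value farthest from 0, −0.41 (SE 0.21, 95% interval −0.87 to 0.05, adjusted p = 1.00 by edgeR), and it was −0.27 without mouse 194.

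A few mice were at the top or the bottom of the 12 in several of the 10 genes. Mouse 194, an SCA1 sedentary animal, had the highest level of all 12 mice in 6 of the 10 genes: Vegfa, Kdr, Flt1, Tek, Pecam1 and Cdh5. It was the only SCA1 sedentary mouse without Y-linked transcripts, at 0.0425 CPM summed, and all WT sedentary mice had them. In that group sex and the levels of mouse 194 cannot be told apart. Mouse 16, also an SCA1 sedentary animal, had the lowest Tek, Pecam1 and Slco1a4, and mouse 55 the lowest Flt1 and Angpt1. A mean of the standardized log2 CPM of the 7 genes used to mark endothelium (Kdr, Flt1, Tek, Cldn5, Pecam1, Cdh5 and Slco1a4) was 1.46 SD in mouse 194, −1.12 in mouse 16 and −0.93 in mouse 55, and −0.46 to 0.70 in the others. The 24 other endothelial identity genes had their highest sum in mouse 194, at 401 CPM, only just above the next mouse at 400.1 CPM. Their lowest sum was in mouse 16, at 300.3 CPM. The other 10 mice had 340.4 to 400.1 CPM, and mouse 55, at 350.1 CPM, was not the lowest of them. The 18 pericyte and smooth muscle genes, which include Zic1, summed to 946 CPM in mouse 194, which ranked it 10 of 12. Such a sum is led by the most abundant genes of a list. Mouse 194 also ranked 10 of 12 in the granule cell sum, and mouse 16 was lowest in both. Which cell types the pericyte sum reflects was not tested. In SCA1 exercise mice 14 of the 17 pericyte and smooth muscle genes that were tested were lower than in SCA1 sedentary mice. Their sums were 894 to 1064 CPM against 760 to 1008 CPM. The number of pericytes was not tested.

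**Figure D3:**
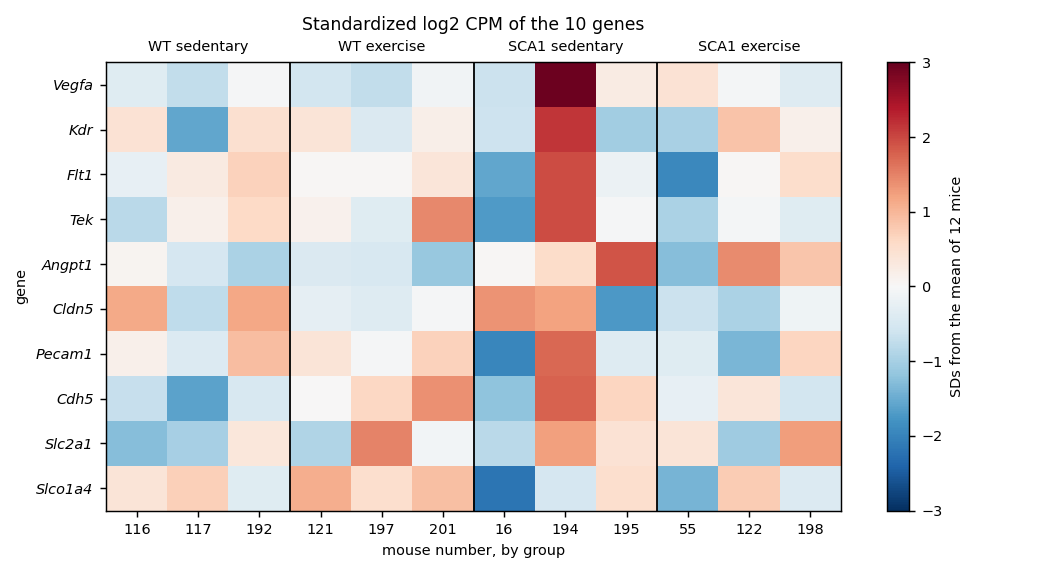
Standardized log2 CPM of each gene (rows) in each mouse (columns, by group), as SDs from the mean of the 12 mice, red above and blue below. The column of mouse 194 is red in Vegfa, Kdr, Flt1, Tek, Pecam1 and Cdh5, and the columns of mice 16 and 55 are blue in Flt1, Tek and Slco1a4.

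Pairwise correlations of log2 CPM over the 12 mice described how far the levels of these genes went together. Of 45 pairs, 37 had a Pearson r above 0, with a median of 0.30 and a range from −0.48 to 0.84. The highest was between the receptor genes Flt1 and Tek, with r = 0.84 (p = 0.00146) and Spearman's rho = 0.83 (p = 0.00142) by permutation tests with 100000 resamples. Adjusted over the 45 pairs these p were 0.0657 and 0.0639, so that none of the 45 pairs passed 0.05, and 8 pairs had an unadjusted p under 0.05 by r. The r of Flt1 and Tek was 0.78 without the 2 mice farthest from the median of Flt1, 0.84 with the group means removed, 0.79 without mice 16 and 55 and 0.74 without mouse 194.

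The next highest were those of Pecam1, with r = 0.75 (rho = 0.62) to Tek and r = 0.74 (rho = 0.69) to Flt1, with adjusted permutation p of 0.105 by r for each and 0.513 and 0.380 by rho. Without the 2 farthest mice these r were 0.38 and 0.80. Kdr and Flt1, the VEGF receptors, had r = 0.65 and rho = 0.52 (adjusted permutation p = 0.178 and 0.552), and r = 0.41 without mouse 194. Angpt1 and its receptor gene Tek had r = −0.04 and rho = −0.07 (adjusted permutation p = 0.916 and 0.957). Vegfa and its receptor gene Kdr had r = 0.63 and rho = 0.36 (adjusted permutation p = 0.233 and 0.607), and r was 0.04 without mouse 194. Cldn5 and Slco1a4 had the lowest value, r = −0.48 and rho = −0.50 (adjusted permutation p = 0.286 and 0.552). The median over the 45 pairs was 0.40 with the group means removed and 0.14 without mouse 194.

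**Figure D4:**
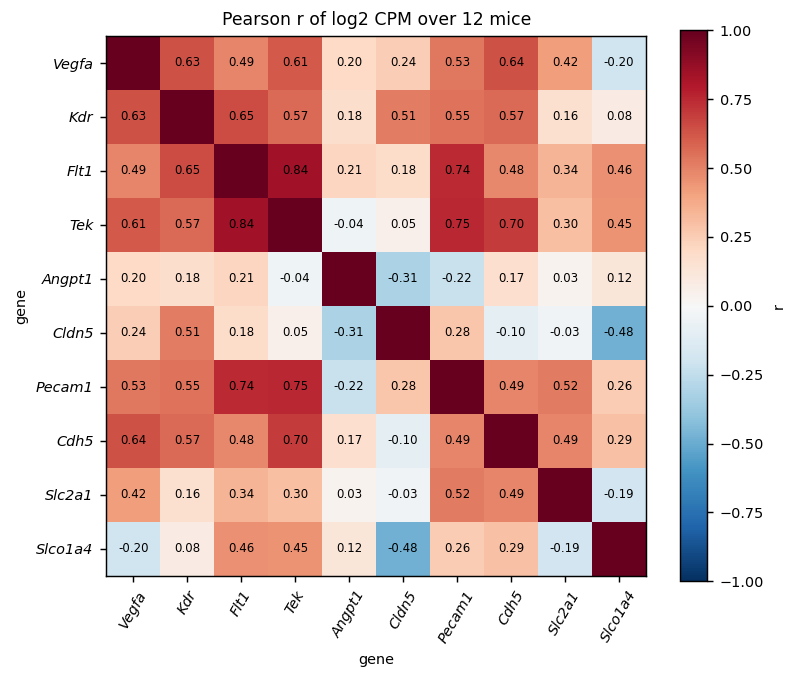
Pearson r of log2 CPM over the 12 mice for each pair of genes, printed in each cell and coloured from blue (−1) to red (1). The block of Vegfa, Kdr, Flt1, Tek, Pecam1 and Cdh5 is red, with 0.84 between Flt1 and Tek, whereas Angpt1 is pale against every other gene, between −0.31 and 0.21.

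The genes whose pattern over the 12 libraries was most like the mean of the 7 endothelial genes were not among the vascular lists described next. Among 14799 genes with a mean log2 CPM of 1 or more, the 8 with the highest r were Cbx7 (0.97), Sidt2 (0.92), Smg6 (0.91), Ambra1 (0.91), Bms1 (0.91), Med26 (0.91), Oplah (0.91) and Zfp653 (0.90). Of the 50 most alike, Ptprb was the only gene of those lists, at r = 0.86 and rank 37. Ptprb encodes the endothelial phosphatase VE-PTP, which acts on TIE2 and VE-cadherin. It was at 51.2, 91.6 and 77.9 CPM in SCA1 sedentary mice 16, 194 and 195, the same order as Tek. These values are a description over 12 libraries. All genes of a library share its depth and cell mixture, and both differed between libraries.

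The rest of the pathway was read from 8 lists of 145 vascular genes, of which 140 passed the filter. In 6 of the 7 comparisons 0 of the 140 were called by edgeR, with 2 to 25 at an unadjusted p under 0.05, and in the comparison of genotypes over both activity groups 1 was called lower and 0 higher. Between the sedentary groups 25 of the 140 (17.9%) had an unadjusted p under 0.05, with 87 higher and 53 lower, beside 10.1% of all genes. In exercise over both genotypes 2 of the 140 (1.43%) did, beside 3.54% of all genes. DESeq2 called the barrier genes Marveld2 and Plvap, the relay gene Dusp5 and the hypoxia gene Car9 in the comparison of genotypes over both activity groups, and Car9 alone among the 140 between the sedentary groups.

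The gene called was Car9, carbonic anhydrase IX, a target of hypoxia-inducible factor. It was at 6.91, 6.58 and 8.34 CPM in WT sedentary and at 9.11, 6.59 and 7.36 CPM in WT exercise mice. It was at 1.48, 2.21 and 0.722 CPM in SCA1 sedentary and at 4.29, 1.79 and 1.07 CPM in SCA1 exercise mice, from 15 to 108 counts. All 6 SCA1 mice lay below all 6 WT mice, and Car9 fell by 1.99 on the log2 scale (SE 0.32, adjusted p = 0.0418 by edgeR). Over 18 alternatives the log2FC lay between −2.35 and −1.82 and the adjusted p between 1.46e-07 and 0.137, and 9 of them called it. The call was lost with unstranded counts, without any 1 of the 6 WT mice, and without SCA1 exercise mouse 122 or 198.

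The direction of Car9 was not that of its list. Of the 17 hypoxia genes tested, 14 were higher and 3 lower in SCA1 mice, with a median log2FC of 0.11 (0.01 over all genes) and no further call. SCA1 mice 16 and 55 had the highest summed levels of this list, 1231 and 1079 CPM. The other mice had 937 to 1060 CPM. The direction of the list without mice 16 and 55 was not tested. With exercise the lowest p was that of Egln1, an oxygen-sensing hydroxylase, at a log2FC of −0.10 (SE 0.06). Vegfa, itself a target of the same factor, had a log2FC of 0.11 (SE 0.07, adjusted p = 0.651 by edgeR) and Slc2a1, another, had 0.07 (SE 0.08, adjusted p = 0.813 by edgeR).

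Of the 11 further ligands and receptors of the VEGF and angiopoietin families, 0 were called in any comparison. Nrp2, a neuropilin co-receptor, had the lowest p between the sedentary groups, with a log2FC of 0.66 (SE 0.24, adjusted p = 0.378 by edgeR). It was at 19.0, 19.4 and 28.2 CPM in WT sedentary and at 48.2, 31.4 and 25.5 CPM in SCA1 sedentary mice, highest in mouse 16, with the groups overlapping. Tie1, the partner receptor of TIE2, had the lowest p with exercise over both genotypes, a log2FC of −0.25 (SE 0.13, adjusted p = 0.945 by edgeR), and was at 16.5 CPM in mouse 194 and 8.01 to 11.5 CPM in the others. Angpt2, which opposes angiopoietin-1, was near 1 CPM throughout, with 16 to 32 counts in a library, and a log2FC of 0.51 (SE 0.28, adjusted p = 0.566 by edgeR) between the sedentary groups.

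Among the 24 endothelial identity genes 0 were called, 15 were lower and 9 higher between the sedentary groups, and S1pr1, the receptor of the vessel lipid sphingosine-1-phosphate, had the lowest p (log2FC −0.34, SE 0.12, adjusted p = 0.354 by edgeR). Among 21 barrier junction and transporter genes, Marveld2, tricellulin, had the lowest p, with a log2FC of −0.63 (SE 0.18, adjusted p = 0.268 by edgeR). With exercise it was F11r, the junction molecule JAM-A, at 0.24 (SE 0.13). In the relay behind VEGFR2, 0 of 17 were called, and the phosphatase gene Dusp5 had a log2FC of −0.78 (SE 0.22, adjusted p = 0.281 by edgeR) between the sedentary groups. Between the genotypes over both activity groups, 6 of 18 alternatives called Dusp5. Akt1, the kinase, had the lowest p with exercise, with a log2FC of −0.18 (SE 0.11).

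In the list of Notch and vessel sprouting 0 of 16 were called, with Jag1, a Notch ligand, at a log2FC of 0.55 (SE 0.22, adjusted p = 0.422 by edgeR) between the sedentary groups and Nid2, a basement membrane protein, at 0.45 (SE 0.20) with exercise. In the Wnt signals that maintain the barrier 0 of 17 were called. Ndp, the ligand norrin, had a log2FC of −0.47 (SE 0.16, adjusted p = 0.341 by edgeR) between the sedentary groups, and Fzd4, its receptor, had the lowest p with exercise, 0.38 (SE 0.11, adjusted p = 0.945 by edgeR). Fzd4 was at 17.3, 18.4 and 16.5 CPM in WT sedentary and at 27.6, 28.0 and 24.0 CPM in WT exercise mice. These groups did not overlap, as was the case for 21.2% of all genes. In SCA1 mice Fzd4 was at 19.8, 22.6 and 24.5 CPM without and at 30.8, 21.3 and 22.2 CPM with a wheel, and these groups overlapped. In WT mice the log2FC was 0.61 (SE 0.15, adjusted p = 0.465 by edgeR), and the gene was called there in 2 alternatives, the fit of these 2 groups alone and the fit without mice 16 and 55.

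**Figure D5:**
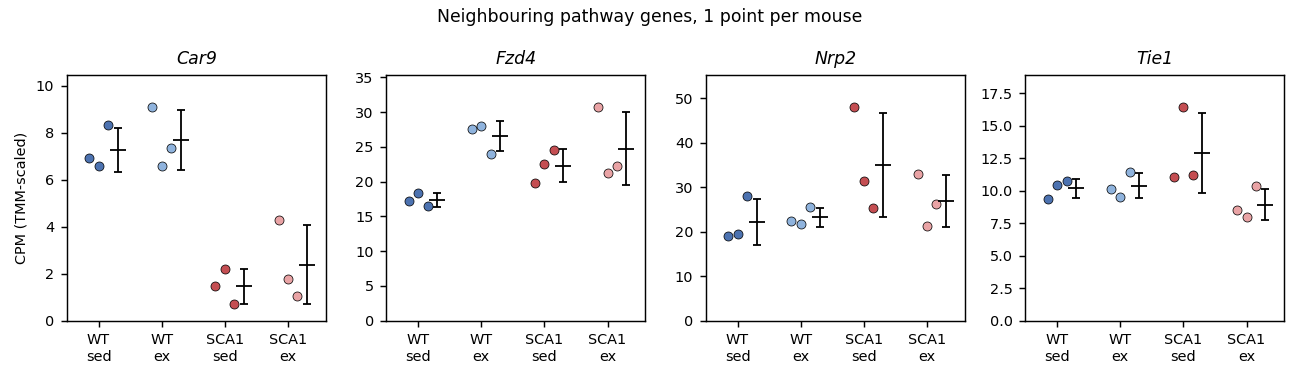
CPM (vertical axis, from 0) of Car9, Fzd4, Nrp2 and Tie1 in the 4 groups, 1 point per mouse in order of mouse number, with the mean ± SD of 3 mice. Car9 was at 4.29 CPM or less in the SCA1 mice and 6.58 CPM or more in the WT mice, and the WT exercise and WT sedentary points of Fzd4 are apart. Between these WT groups 21.2% of all genes did not overlap.

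Of the 17 pericyte and smooth muscle genes tested, 0 were called, and in SCA1 exercise against SCA1 sedentary mice 14 were lower, with a median log2FC of −0.30. Anpep had the lowest p between the sedentary groups (log2FC 0.60, SE 0.24, adjusted p = 0.426 by edgeR) and Cspg4, which encodes the pericyte proteoglycan NG2, with exercise (−0.28, SE 0.14).

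The dissection also held other cell types, whose summed markers had different ranges in the groups. The 10 genes of the choroid plexus, a tissue whose fenestrated vessels lie outside the barrier, summed to 149.7 to 699 CPM in WT sedentary, 1426 to 3217 in WT exercise, 133 to 1870 in SCA1 sedentary and 971 to 2753 in SCA1 exercise mice. All 10 were higher in WT exercise than in WT sedentary mice, 9 with an unadjusted p under 0.05, 0 called by edgeR and 2 (Aqp1 and Prlr) by DESeq2. The 10 genes of meninges and fibroblasts summed to 77.5 to 130.2 CPM in WT sedentary and 117 to 152 CPM in WT exercise mice. The 6 granule cell genes summed to 3192 to 3573 CPM in WT sedentary and 1609 to 2809 CPM in SCA1 sedentary mice. The 6 Purkinje cell genes summed to 7374 to 8372 CPM in WT sedentary and 4441 to 5970 CPM in SCA1 sedentary mice, and 2 of them, Calb1 and Pcp4, were called lower by edgeR. In the reported fit no other gene of the cell type lists was called by edgeR in any of the 7 comparisons. For WT exercise against WT sedentary mice, edgeR called 6 choroid plexus genes with a filter of 1 count. With these 2 groups alone it called 8, and 3 genes of meninges and fibroblasts. Between the sedentary groups DESeq2, a filter of 1 count and leaving out mice 16 and 55 each called 5 Purkinje cell genes. The Y-linked covariate left 1. The 10 astrocyte and Bergmann glia genes ranged from 2650 to 4258 CPM, the 7 microglia and macrophage genes from 51.5 to 96.9 CPM and the 5 red blood cell genes from 15.5 to 81.3 CPM over the 12 mice. Mice 16 and 55 held several of these ends. The granule cell genes summed to 1609 and 2316 CPM in them against 2443 to 3573 CPM in the other mice. The Purkinje cell genes gave 4441 and 7427 CPM against 5665 to 8372 CPM. The astrocyte list gave 4096 and 4258 CPM against 2650 to 3523 CPM, and the microglia list 96.9 and 77.6 CPM against 51.5 to 63.4 CPM. No list had a gene at 0 in every library of a group, except 1 gene of the relay list in SCA1 exercise mice and 1 of the hypoxia list in each group. Their part in the values of the 10 genes was not tested.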

How the data were processed

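Bulk cerebellar RNA from 12 mice was depleted of rRNA and sequenced as stranded, paired libraries. The authors mapped the reads to GRCm39 with STAR 2.7.10a, and the submitters' processing notes also name FastQC 0.11.9 and fastp 0.24.0. The annotation release is not given in the sources used here. Their methods state that 2 samples of lower RNA integrity were prepared differently, and the sources used here do not name them. The deposited values are whole-number counts per Ensembl gene, of which the reverse-strand column was used without its lines that name no gene (39.3% to 58.7% of read pairs in the no-feature line). GENCODE M39 gave symbols, positions and exon lengths for 56323 of 56941 genes.

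Counts were filtered with filterByExpr (20341 genes), scaled by TMM and fitted to 4 groups with edgeR 4.0.16 in R 4.3.3 (glmQLFit and glmQLFTest), and CPM and log2 CPM (prior count 2) were computed from them. Single genes were also tested by exact permutation. The 20556802 to 32127508 counts on genes per library put at least 172 counts behind each value of the 10 genes. Alternatives were DESeq2 1.42.0, RLE scaling, a filter of 1 count, unstranded counts, the 2 groups of a comparison alone, leaving out mice 16 and 55, a covariate for Y-linked counts, no limit on log2FC, and leaving out each mouse. The correlations without mouse 194 were added after seeing the data. Named besides the 10 genes are the called genes of each list, or else those with the lowest p between the sedentary groups and with exercise, and the 8 genes most like the endothelial mean. Aqp1, Prlr, Plvap, Ptprb and Angpt2 were named after their values were seen. 1 gene of the oligodendrocyte list is not reported here. The 10 genes, the lists and the tests were chosen with earlier results of these data known.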

Additional observations from a re-analysis of the deposited data

Results flagged for a closer look

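Cdh5, which encodes VE-cadherin, was singled out because the runners of the 2 genotypes lay on opposite sides of their sedentary means. All 3 WT exercise mice, at 13.6, 14.7 and 16.2 CPM, lay above the WT sedentary mean of 12.1 CPM, and all 3 SCA1 exercise mice, at 13.2, 14.2 and 12.7 CPM, lay below the SCA1 sedentary mean of 14.5 CPM. That SCA1 mean rests on 11.7, 17.0 and 14.8 CPM in mice 16, 194 and 195, and the SCA1 runners lay within this range. The log2FC of SCA1 runners, −0.12, ran from −0.25 to 0.027 with 1 mouse left out, so its sign did not hold. The share of all genes with such a pattern is not given here. The difference between the responses, tested as the interaction term, was −0.41 on the log2 scale (SE 0.21, adjusted p = 1.00 by edgeR). This interaction was −0.27 without mouse 194 and −0.54 without mice 16 and 55.

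A signal in data left out of the comparisons was the second case. The forward-strand column held counts at Slc2a1, which the annotation gives to the plus strand and which an exon of Gm12868 overlaps on the other strand. Per 1000000 forward-strand counts the mean was 9.25 ± 2.72 in SCA1 sedentary mice (SD, n = 3), from 10 to 16 counts in a library, against 5.09 ± 0.418 in WT sedentary mice (SD, n = 3), from 7 to 9 counts. It was 5.04 ± 1.58 in WT exercise and 9.21 ± 3.87 in SCA1 exercise mice, and the SCA1 exercise range of 4.78 to 11.9 overlapped the WT exercise range of 3.36 to 6.49. No test was run on these counts, and the gene they come from was not tested.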

How the results depend on the processing

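Of 70 log2FC values, 10 genes in 7 comparisons, none was called in the reported fit, and of their 460 values under 7 alternatives 24 changed sign and 1 became a call, Angpt1 between the genotypes without mice 16 and 55 (1 gene called against 0). The eighth, no limit on log2FC, changes no log2FC. The largest value that changed sign was 0.16 in absolute size. No paired analysis was possible because the mouse numbers differ between groups. With DESeq2 the log2FC changed sign for Flt1 (0.0035) in SCA1 sedentary against WT sedentary mice. With RLE scaling the log2FC changed sign for Flt1 (0.0035) in SCA1 sedentary against WT sedentary mice. With a filter of 1 count the log2FC changed sign for Slc2a1 (−0.00062) in SCA1 exercise against WT exercise mice. With unstranded counts the log2FC changed sign for Flt1 (0.00097) in SCA1 sedentary against WT sedentary mice, for Pecam1 (−0.010) in WT exercise against WT sedentary mice, for Slc2a1 (0.027) in SCA1 exercise against SCA1 sedentary mice and for Tek (0.046) in exercise over both genotypes. Without mice 16 and 55 the log2FC changed sign for Flt1 (0.17) and Pecam1 (0.097) in SCA1 sedentary against WT sedentary mice, for Flt1 (0.039) and Slc2a1 (−0.00081) in SCA1 exercise against WT exercise mice, for Angpt1 (0.036) and Cldn5 (0.065) in the interaction and for Flt1 (0.11), Tek (0.054) and Pecam1 (0.00077) in genotype over both activity groups. With the Y-linked covariate the log2FC changed sign for Tek (−0.068) in SCA1 sedentary against WT sedentary mice, for Kdr (−0.043), Tek (−0.013) and Pecam1 (−0.017) in WT exercise against WT sedentary mice, for Vegfa (−0.0012) and Kdr (−0.089) in SCA1 exercise against WT exercise mice and for Kdr (−0.041) and Cdh5 (−0.025) in genotype over both activity groups. Leaving out 1 mouse at a time gave 840 values, of which 94 changed sign, in 41 of the 70, and none became a call. In SCA1 sedentary against WT sedentary mice the ranges were Kdr −0.21 to 0.29, Flt1 −0.24 to 0.15, Tek −0.18 to 0.21, Cldn5 −0.15 to 0.15 and Pecam1 −0.23 to 0.077. In WT exercise against WT sedentary mice the ranges were Vegfa −0.027 to 0.0081, Kdr −0.099 to 0.14, Flt1 −0.070 to 0.025, Tek −0.020 to 0.16, Angpt1 −0.18 to 0.013 and Pecam1 −0.018 to 0.072. In SCA1 exercise against SCA1 sedentary mice the ranges were Vegfa −0.20 to 0.034, Kdr −0.24 to 0.26, Flt1 −0.29 to 0.11, Tek −0.30 to 0.087, Angpt1 −0.39 to 0.098, Pecam1 −0.17 to 0.14, Cdh5 −0.25 to 0.027, Slc2a1 −0.096 to 0.064 and Slco1a4 −0.077 to 0.23. In SCA1 exercise against WT exercise mice the ranges were Kdr −0.14 to 0.14, Flt1 −0.22 to 0.039 and Slc2a1 −0.084 to 0.090. In the interaction the ranges were Vegfa −0.19 to 0.044, Kdr −0.29 to 0.21, Flt1 −0.26 to 0.13, Angpt1 −0.30 to 0.19, Cldn5 −0.23 to 0.069, Pecam1 −0.18 to 0.12 and Slco1a4 −0.21 to 0.097. For genotype over both activity groups the ranges were Kdr −0.10 to 0.14, Flt1 −0.18 to 0.021, Tek −0.18 to 0.014, Cldn5 −0.12 to 0.032 and Cdh5 −0.021 to 0.12. For exercise over both genotypes the ranges were Vegfa −0.10 to 0.012, Kdr −0.091 to 0.16, Flt1 −0.15 to 0.043, Tek −0.10 to 0.088, Angpt1 −0.24 to 0.0046 and Pecam1 −0.076 to 0.077. Over all genes, calls between the sedentary groups numbered 7 as reported, 206 with DESeq2, 76 with a filter of 1 count, 0 with the 2 groups alone, 205 without mice 16 and 55, 3 with the Y-linked covariate and 0 to 42 with 1 mouse left out. Between the genotypes over both activity groups they numbered 24, and 175 with DESeq2, 125 with a filter of 1 count, 13 with unstranded counts, 142 without mice 16 and 55 and 0 to 63 with 1 mouse left out. In WT exercise against WT sedentary mice they numbered 0, and 65 with DESeq2, 45 with a filter of 1 count, 150 with the 2 groups alone, 64 without mice 16 and 55 and 0 to 19 with 1 mouse left out. In SCA1 exercise against WT exercise mice they numbered 0, and 2 with DESeq2, 37 without mice 16 and 55 and 0 to 5 with 1 mouse left out. DESeq2 called 1 in SCA1 exercise against SCA1 sedentary mice, 2 in the interaction (0 to 1 by edgeR with 1 mouse left out) and 11 in exercise over both genotypes, each 0 with edgeR. The cause of these changes was not tested. The median r of the gene pairs, 0.30, was 0.31 with RLE scaling, 0.34 without mice 16 and 55, 0.40 with group means removed and 0.14 without mouse 194.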
